A study of Mus musculus with 12 samples.

Results

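The Hox genes encode homeodomain transcription factors, and those of the mouse lie in the clusters HoxA, HoxB, HoxC and HoxD. Members were all genes of the deposited expression table whose symbol reads Hoxa, Hoxb, Hoxc or Hoxd followed by digits only, without regard to any measured value. This rule gave 29 of 24674 genes: 11 of HoxA on chromosome 6, 9 of HoxB on chromosome 11 and 9 of HoxD on chromosome 2. It matched 0 Hoxc rows and no row of Hoxb1, which were not analysed here. RNA was measured in 12 libraries of prostate organoids grown from basal epithelial cells of wildtype C57BL/6 mice, with 3 libraries in each of 4 groups. The first group received vehicle, the next UK5099, an inhibitor of the carrier that brings pyruvate into mitochondria, the third butyrate, an inhibitor of histone deacetylases, and the last UK5099 and butyrate together. The labels give neither dose, time of treatment, nor age or number of mice, and they do not say that replicates came from separate cultures, so the p-values below measure only the spread between these samples. Organoids are epithelial cultures without the mesenchyme that surrounds the gland in the animal.

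Hox genes are numbered as paralog groups by their order in the cluster, and this order matches the order in which they are used along the body axis: low numbers act towards the head and high numbers towards the tail. Posterior members pattern the urogenital tract. Hoxb13 is needed for the luminal cells of the mouse ventral prostate, and Hoxa13 and Hoxd13 for branching of the prostate and its accessory glands. Hox proteins bind DNA together with partners of the TALE class of homeodomain proteins, the Pbx, Meis and Pknox families. Here paralog groups 1 to 3 are called anterior (7 members), 4 to 8 central (11 members) and 9 to 13 posterior (11 members).

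Expression was deposited as TPM, each gene's length-scaled share of the transcripts in a library, in which fragments had been divided by the whole genomic span, introns included. A gene's own length cancels when it is compared with itself, but the new total per library still shifts ratios between groups. Under butyrate Hoxb13 stood at 92.1% of the vehicle mean as deposited, but at 45.35 against 45.39 TPM per exonic length. Levels of different genes can only be compared per exonic length, and values on that second scale are named as such. Between 33251844 and 43498958 fragments per library were recovered from the values. The first replicates of UK5099 and of the combination stood apart from their partners, with a chi-square per gene of 6.29 to 6.64 in the 4 pairs they form against 1.93 to 2.65 in the other pairs. Among the 13345 genes whose mean reached 1 TPM, the median log2 coefficient on the deposited scale was -0.12 in the UK5099 comparison, -0.30 in that of butyrate and -0.41 in that of the combination. Median-of-ratios scaling brought these medians to 0.003, -0.03 and -0.03, so Hox coefficients and counts are mostly given on both scales. The words "as deposited" and "after scaling" name these scales, and the sums per exonic length were left unscaled.

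In vehicle-treated organoids Hox levels were highest at the posterior end of the clusters. Per exonic length, the median member of the anterior groups lay at 1.06 TPM, that of the central groups at 2.90 TPM and that of the posterior groups at 26.6 TPM, and the posterior members ran from 5.88 to 119 TPM. As deposited, 13 members reached 10 TPM in vehicle, of which 9 were posterior, 4 central and 0 anterior. On that scale 10 lay between 1 and 10 TPM and 6 below 1 TPM. The deposited values divide by the genomic span, so these bins do not rank genes. Of the 6, Hoxb3 (2.51), Hoxa3 (2.08) and Hoxd4 (1.01) lay above 1 TPM per exonic length.

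**Figure D1:**
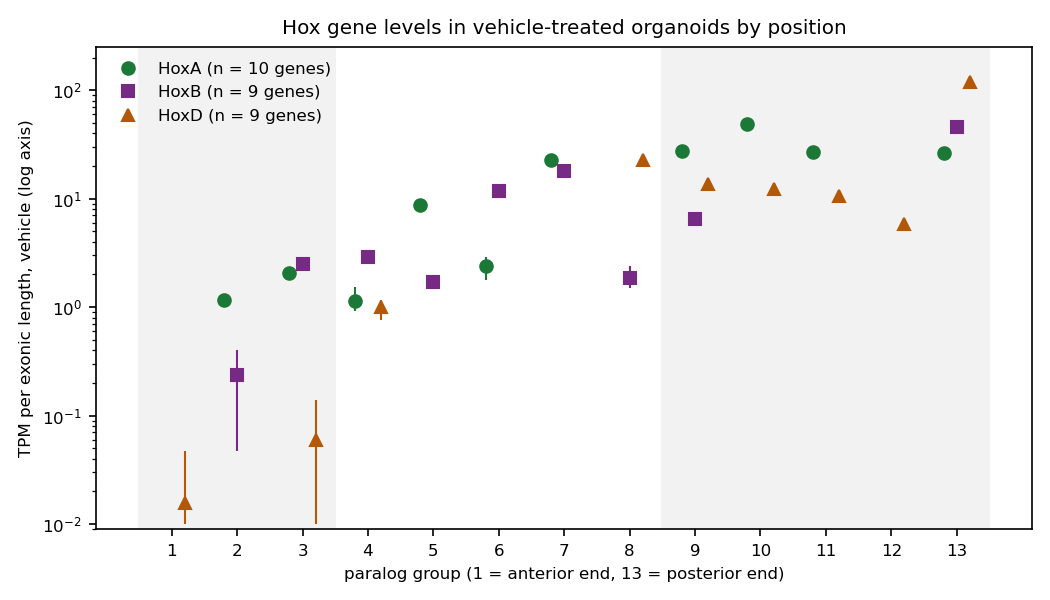
TPM per exonic length in vehicle-treated organoids (log axis) against paralog group for 28 of the 29 Hox genes, with points for the mean of 3 samples and vertical lines for their range, cut at the lower edge of the axis; anterior and posterior groups are shaded. Hoxd13 stands highest at 119 TPM, and Hoxd1 and Hoxd3 lie lowest.

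Hoxd13 was the most abundant member at 119 ± 1.96 TPM per exonic length (mean ± SD, n = 3). Hoxa10 (48.8 ± 1.39) and Hoxb13 (45.4 ± 0.36) followed, and the sample ranges of these 3 genes did not overlap. Hoxa9 (27.4), Hoxa11 (27.1) and Hoxa13 (26.6) could not be ordered, since the ranges of neighbours overlapped. The central genes Hoxd8 (22.8) and Hoxa7 (22.7) came next and also overlapped each other, ahead of Hoxb7 at 17.9 TPM. Hoxd9 (13.7), Hoxd10 (12.2), Hoxb6 (11.8) and Hoxd11 (10.7) formed a run in which each overlapped the next. Hoxa5 (8.79), Hoxb9 (6.52) and Hoxd12 (5.88) were the other members above 5 TPM on this scale. Hoxd12 had the lowest mean of the posterior genes although it lies next to the highest, but its sample range overlapped that of Hoxb9. Hoxb9 and Hoxd12 were the 2 posterior members under 10 TPM per exonic length.

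Summed over members per exonic length, without median-of-ratios scaling, the HoxA, HoxB and HoxD clusters were each lowest in the combination. HoxD went from 185.4 ± 3.38 TPM per exonic length in vehicle to 132.6 ± 2.19 under UK5099, 143.6 ± 1.11 under butyrate and 106.9 ± 1.89 under both (SD, n = 3). HoxB went from 90.7 ± 0.64 to 62.3 ± 0.59, 72.5 ± 1.92 and 53.3 ± 2.40 TPM in the same order. HoxA went from 169.2 ± 2.82 to 149.0 ± 2.23, 161.4 ± 1.32 and 134.8 ± 0.13 TPM. The ranges of the 4 groups did not overlap in any of the 3 clusters. These sums were not put through median-of-ratios scaling, so a shift shared by all genes may be part of them. The median HoxA coefficient in the combination was -0.10 as deposited and 0.17 after scaling, so a fall of HoxA was not shown to outlast scaling.

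**Figure D2:**
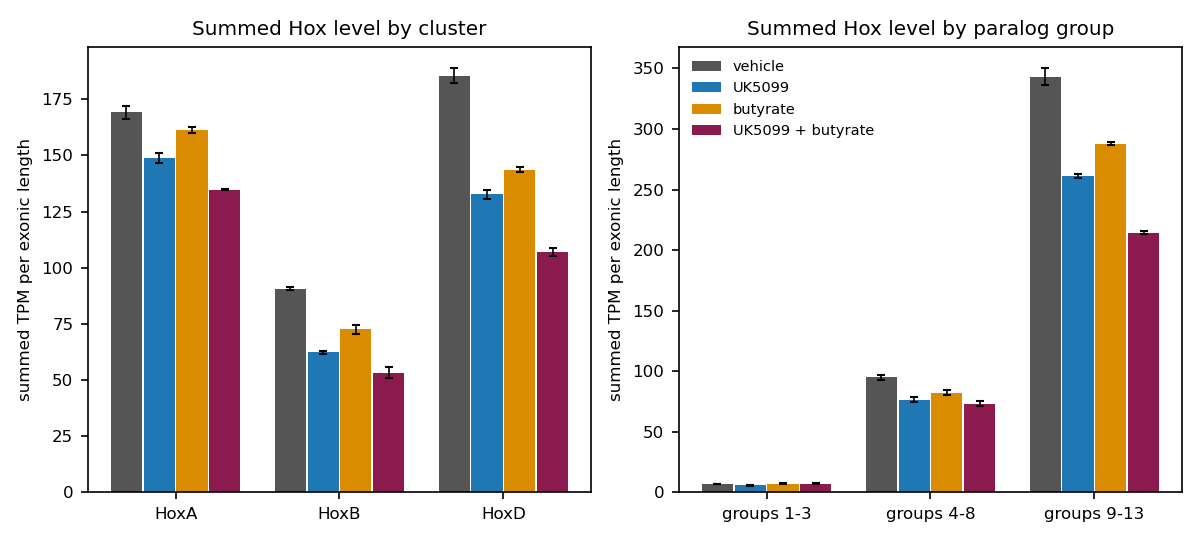
Summed TPM per exonic length by cluster (left) and by paralog groups (right), without median-of-ratios scaling. Bars give the mean and error bars the SD of 3 samples in each of the 4 treatment groups. The posterior genes carry most of the sum, 343.3 TPM in vehicle and 214.4 TPM in the combination, while the anterior sum stays between 5.99 and 7.24 TPM.

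Posterior genes made up 77.1% ± 0.68 of the Hox sum in vehicle and 72.7% ± 0.42 in the combination, a share that does not depend on the scaling of the library. The central share was 21.3% ± 0.64 in vehicle and 24.9% ± 0.36 in the combination. HoxA held 38.0% ± 0.22 of the sum in vehicle, 43.3% ± 0.57 under UK5099, 42.8% ± 0.26 under butyrate and 45.7% ± 0.53 in the combination. These shares are descriptions of 3 samples a group and were not tested.

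Each gene was then tested in a single limma model of all 24674 genes and 12 samples with terms for UK5099, butyrate and their interaction. A gene was called where its Benjamini-Hochberg adjusted p lay under 0.01 and its log2 coefficient over 1 in size; "rose" and "fell" below need the adjusted p alone. With both limits, UK5099 called 0 members, where 0.928% of all genes were called higher and 0.912% lower. Butyrate also called 0 members, against 1.13% of all genes higher and 2.42% lower. The combination called 4 members, Hoxd13, Hoxb5, Hoxb6 and Hoxb7, all lower, against 4.63% of all genes lower and 1.79% higher. Of the 13345 genes whose mean reached 1 TPM it called 1087 lower, beside these 4 members. After scaling none of these 4 was called, and the 1 member called was Hoxa4, higher, where 725 of all genes were called higher and 412 lower; with voom on recovered fragments Hoxb5 and Hoxb6 were called lower and Hoxa4 higher. As deposited, the counts stayed at 0, 0 and 4 without both libraries that stood apart. At an unadjusted p under 0.05, 19 members differed for UK5099 and 19 for butyrate, but 0 of these had a coefficient over 1 in size, and voom on recovered fragments also called 0 in both comparisons. Counts at an unadjusted p, here and below, were not set against the share of all genes and cannot be told from it. Of all genes voom called 745 higher and 685 lower for UK5099, 1689 and 914 for butyrate, and 2124 and 1341 for the combination.

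At the adjusted p alone, UK5099 lowered 12 members and raised 0, where 24.7% of all genes fell and 8.24% rose. The 13345 genes whose mean reached 1 TPM as deposited are a closer background, since 23 of the 29 members reached that level in a group on the same scale. Of these 23 members 11 fell as deposited and 8 after scaling, against 5088 and 2680 of the 13345 genes. These counts were not tested. After scaling, 9 members fell and 0 rose, against 13.7% and 13.5% of all genes. The 9 that fell on both scales and with voom on recovered fragments, the 3 meant below by "every scale", were Hoxa10, Hoxb3, Hoxb5, Hoxb6, Hoxb7, Hoxb13, Hoxd10, Hoxd12 and Hoxd13. The median coefficient of the members was -0.22 as deposited and -0.08 after scaling, against -0.03 and 0.001 for all genes.

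Butyrate lowered 15 members and raised 0 as deposited, against 35.9% of all genes lower and 9.7% higher. Of the 23 members that reached 1 TPM, 14 fell as deposited and 6 after scaling, against 7681 and 4297 of the 13345 genes. The members thus lay close to that background, and no excess of falling Hox genes is read from the counts. After scaling the split was even, with 7 members lower and 7 higher, beside 20.3% and 18.5% of all genes. The direction of butyrate's effect therefore depended on the scaling for many members, and the 7 that fell on every scale were Hoxa13, Hoxb3, Hoxb5, Hoxb6, Hoxb7, Hoxd11 and Hoxd13. The 7 that rose after scaling, Hoxa3, Hoxa4, Hoxa7, Hoxa9, Hoxb13, Hoxd4 and Hoxd12, did not pass as higher on the deposited scale.

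The combination lowered 15 members and raised 2 as deposited, beside 40.8% and 10.1% of all genes. Of the 23 members that reached 1 TPM, 14 fell as deposited and 9 after scaling, against 8561 and 4629 of the 13345 genes. Here too the members lay close to that background. After scaling 10 fell and 5 rose, against 22.5% and 21.7%. Hoxa10, Hoxa13, Hoxb3, Hoxb5, Hoxb6, Hoxb7, Hoxb13, Hoxd10, Hoxd11 and Hoxd13 fell on every scale, and Hoxa4 rose on every scale. Median coefficients for the combination were -0.50 for HoxB, -0.28 for HoxD and -0.10 for HoxA as deposited, and -0.23, -0.002 and 0.17 after scaling, so that the sign of the HoxA median turned. The 3 comparisons share the vehicle samples.

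**Figure D3:**
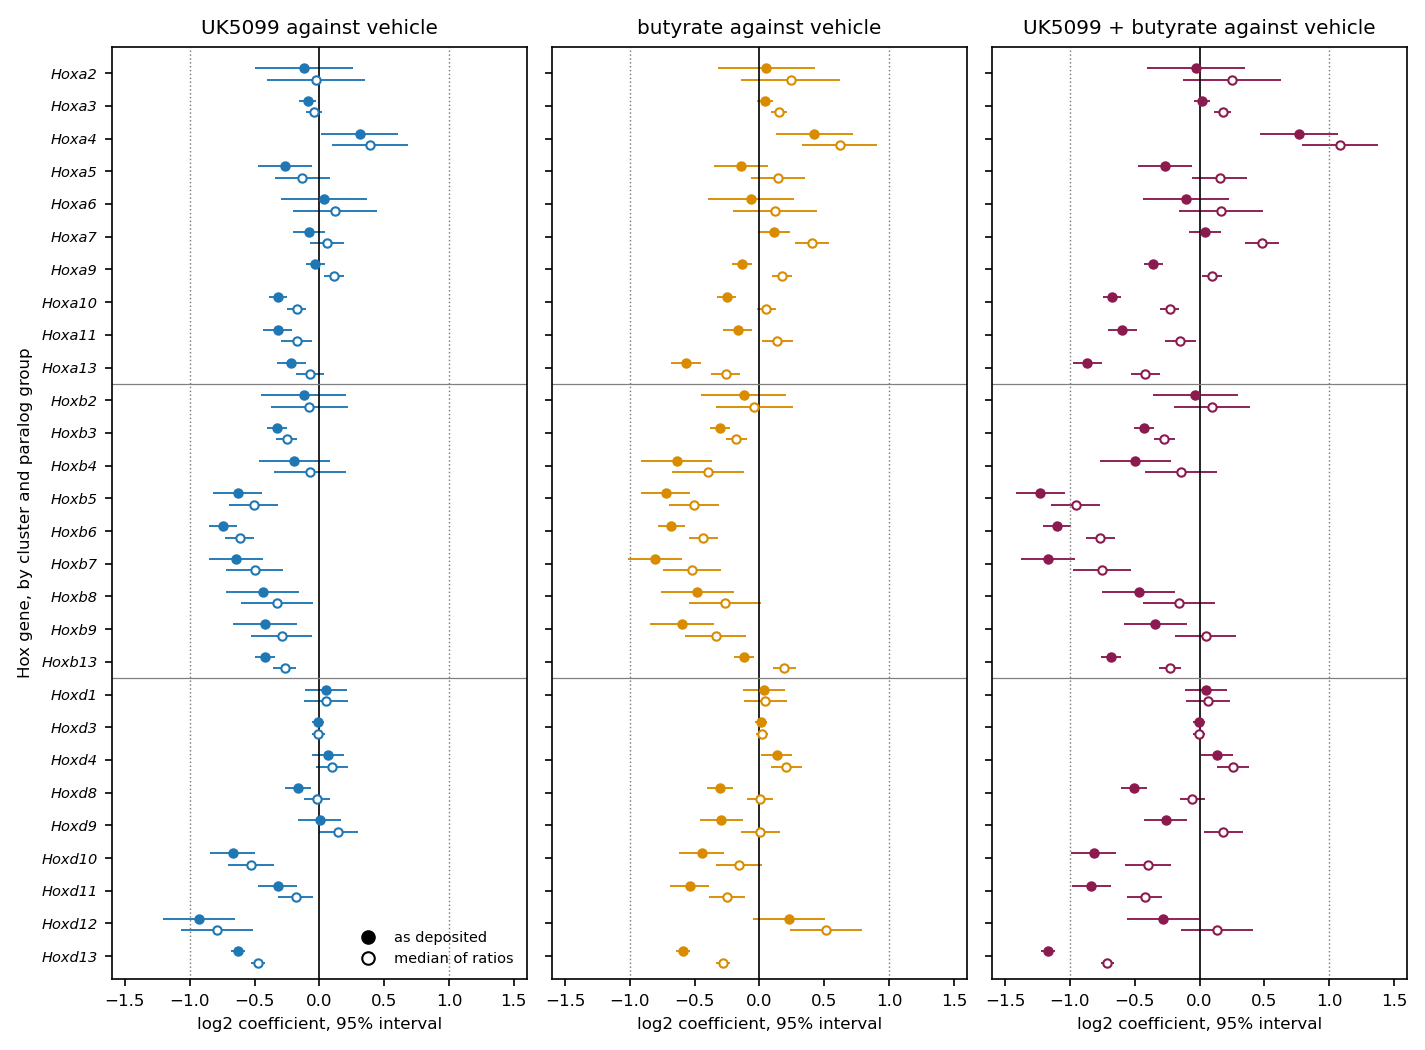
Log2 coefficients with 95% intervals against vehicle for 28 of the 29 Hox genes (rows, by cluster and paralog group) under UK5099, butyrate and the combination. Filled points are as deposited, open points after median-of-ratios scaling, and dotted lines mark a coefficient of 1 in either direction; in the combination Hoxd13, Hoxb5, Hoxb6 and Hoxb7 lie beyond -1 as deposited, none of them after scaling.

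Markers of the epithelial layers moved with the same treatments. The summed TPM of 5 genes listed as luminal, Krt8, Krt18, Krt19, Epcam and Cdh1, ranged from 4831 to 5020 in vehicle, 2774 to 2912 under UK5099, 2514 to 2552 under butyrate and 1568 to 1755 under both. All 5 fell in each comparison as deposited, 4 of them after scaling for butyrate. Epcam and Cdh1 are not specific to luminal cells, and the study sorted both basal and luminal cells as EpCAM-positive. In the combination Krt8, Krt18 and Krt19 gave -2.94, -2.03 and -0.90 as deposited, and Epcam and Cdh1 -2.48 and -1.01. The sum of 5 basal markers, Krt5, Krt14, Trp63, Krt15 and Itga6, ranged from 6531 to 6657 in vehicle, 13500 to 13880 under UK5099, 6920 to 7158 under butyrate and 9983 to 10390 under both. As deposited, 5 basal markers rose under UK5099, 2 rose and 3 fell under butyrate, and 4 rose and 1 fell in the combination. After scaling the counts for UK5099 and the combination stayed as they were, but under butyrate 2 rose and 0 fell. The basal markers were thus abundant in every group, as the label of basal-derived organoids has it. Of 11 mesenchymal markers 10 were measured, and their sum was 10.2 to 10.8 TPM in vehicle, 4.41 to 4.94 under UK5099, 11.03 to 11.36 under butyrate and 2.50 to 2.89 in the combination. This sum hides opposite changes of single genes. Vim, an intermediate filament, was called lower in all 3 comparisons, from 7.98 TPM in vehicle to 1.66 under UK5099, 0.36 under butyrate and 0.15 under both. Dcn, a matrix proteoglycan, was called higher under butyrate, where it reached 9.51 TPM against 0.76 in vehicle, 1.23 under UK5099 and 1.41 under both. At the adjusted p as deposited, 1 of the 10 rose and 1 fell under UK5099, and 1 rose and 3 fell under butyrate and in the combination; after scaling 1 rose and 2 fell under butyrate and 2 rose and 2 fell in the combination. Of 5 immune markers 3 were measured, and nearly all of their sum, 23.9 to 24.8 TPM in vehicle, 29.7 to 30.9 under UK5099, 66.3 to 68.6 under butyrate and 86.4 to 97.1 in the combination, was Cd68, whereas Ptprc and Csf1r lay near 0. Endothelial markers (4 of 4 measured) summed to 0.69 to 1.96 TPM over all groups, mostly Esam, which rose in each comparison. Urothelial markers (4 of 4) summed to 3.70 to 8.79 TPM over all groups, and Upk3a was called lower under UK5099 (-1.62) and in the combination (-1.57). At the adjusted p as deposited, 2 urothelial markers rose and 2 fell under UK5099, 1 rose and 2 fell under butyrate, and 0 rose and 3 fell in the combination. After scaling the numbers were 2 and 1, 1 and 1, and 0 and 2. In bulk RNA, fewer cells of a type and less RNA per cell cannot be told apart, and the part of these markers in the Hox results was not tested.

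Hoxd13 (ENSMUSG00000001819; chromosome 2, 74498654 to 74501944, plus strand, in the GRCm39 coordinates of the table), which patterns digits and the genital tubercle as well as the prostate, fell with each treatment. Its deposited TPM was 159.0, 162.5 and 156.5 in the vehicle samples, 99.1, 104.3 and 105.6 under UK5099, 104.0, 105.8 and 106.0 under butyrate, and 71.0, 69.7 and 69.9 under both. The 2 single treatments overlapped each other, the vehicle samples lay above every treated sample, and the combination lay below every other. Relative to the vehicle mean this was 64.7% under UK5099, 66.1% under butyrate and 44.1% under both. The log2 coefficient for the combination was -1.17 (SE 0.024, adjusted p = 2.6e-10) as deposited and -0.71 after scaling. UK5099 alone gave -0.62 (adjusted p = 6.4e-08) and butyrate alone -0.59 (adjusted p = 2.8e-08), or -0.48 and -0.28 after scaling. The interaction coefficient was 0.05 with a 95% interval from -0.03 to 0.12, which contains an additive effect on the log2 scale.

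Hoxb13 (ENSMUSG00000049604; chromosome 11, 96085142 to 96088274, plus strand) fell under UK5099 and in the combination on every scale, but not under butyrate alone. Its deposited TPM was 57.2, 57.1 and 55.9 in vehicle, 43.7, 41.4 and 41.7 under UK5099, 53.9, 51.0 and 51.8 under butyrate, and 34.8, 36.6 and 33.5 under both. No group overlapped another, and butyrate sat only just below vehicle. UK5099 gave a coefficient of -0.42 (SE 0.034, adjusted p = 8.4e-06) as deposited and -0.27 after scaling. For butyrate the deposited coefficient of -0.12 missed the limit (adjusted p = 0.016) and turned to 0.19 after scaling, whereas the combination fell on both scales, at -0.68 (adjusted p = 6.7e-08) and -0.23. Butyrate added to UK5099 gave -0.27 as deposited and 0.04 after scaling, so its direction too depended on the scale.

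Hoxa13 (ENSMUSG00000038203; chromosome 6, 52234674 to 52237789, minus strand) fell under butyrate and in the combination on every scale, and under UK5099 alone as deposited. Its deposited TPM was 36.8, 38.8 and 36.6 in vehicle, 31.5, 31.4 and 33.1 under UK5099, 23.1, 25.3 and 26.5 under butyrate, and 19.48, 20.94 and 19.75 under both. The groups did not overlap, and butyrate lay well below UK5099. Butyrate gave -0.57 (SE 0.049, adjusted p = 5.5e-06) as deposited and -0.26 after scaling, and the combination -0.87 (adjusted p = 1.7e-07) and -0.42. UK5099 gave -0.22 (adjusted p = 0.0057) as deposited, but -0.07 after scaling did not pass. The 3 genes of paralog group 13 thus all fell in the combination on every scale, to 44.1% of vehicle for Hoxd13, 53.6% for Hoxa13 and 61.6% for Hoxb13 as deposited.

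**Figure D4:**
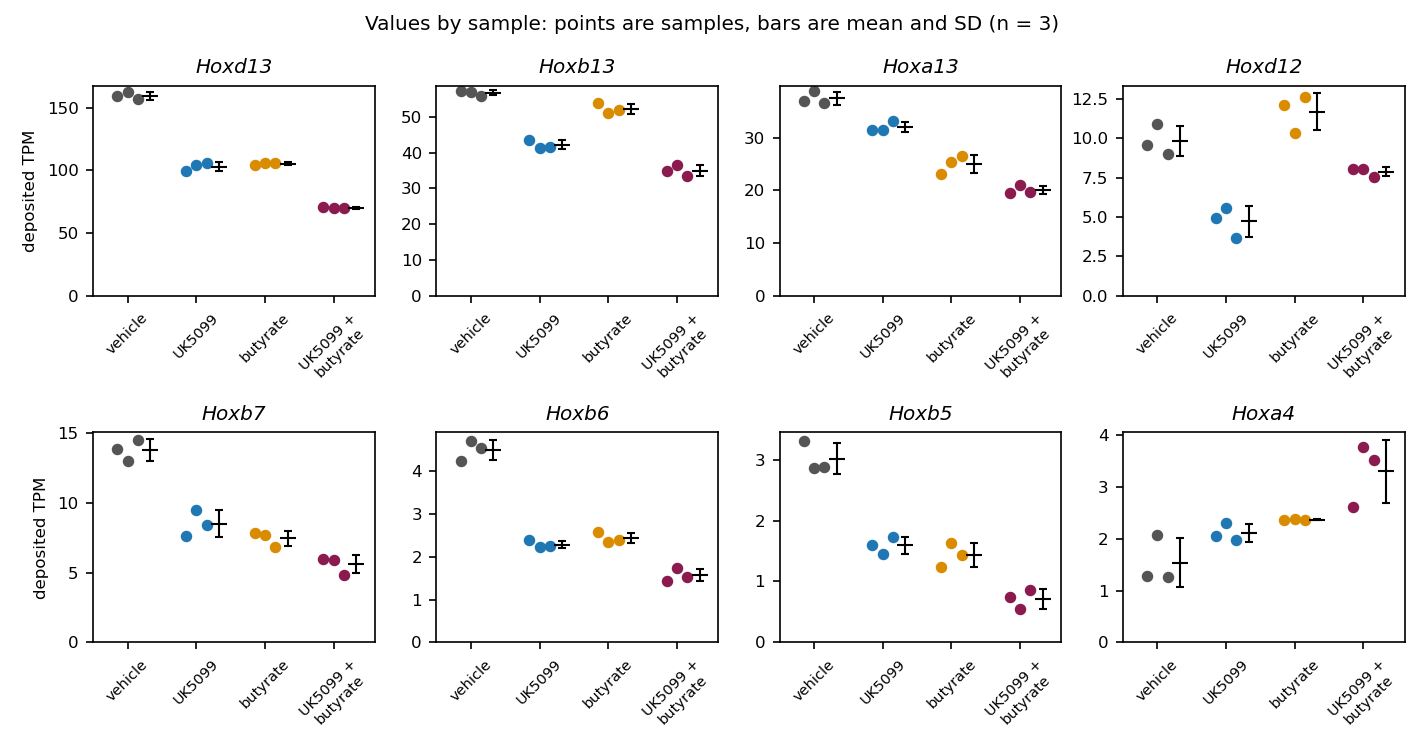
Deposited TPM of 8 Hox genes in each sample (points) with the mean and SD of 3 samples (bars), for vehicle, UK5099, butyrate and the combination; every vertical axis starts at 0. Hoxd13, Hoxb5, Hoxb6 and Hoxb7 are lowest in the combination, Hoxd12 is lowest under UK5099 alone, and Hoxa4 is highest in the combination.

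Hoxd12 (ENSMUSG00000001823; chromosome 2, 74505357 to 74508050, plus strand), a digit and urogenital patterning gene whose start lies 6.7 kb from that of Hoxd13, was lowest under UK5099 alone. Its deposited TPM was 9.59, 10.9 and 8.99 in vehicle, 4.91, 5.57 and 3.68 under UK5099, 12.1, 10.4 and 12.6 under butyrate, and 8.02, 8.07 and 7.56 under both. UK5099 samples were the lowest, butyrate samples overlapped vehicle, and the combination lay between UK5099 and vehicle without touching either. UK5099 gave the lowest coefficient of any member in that comparison, -0.93 (SE 0.12, adjusted p = 1.9e-04) as deposited and -0.79 after scaling. It was past -1 (-1.04) when the second replicate of UK5099 was left out. Butyrate gave 0.23 (adjusted p = 0.16) as deposited and 0.51 after scaling, where it passed. Butyrate added to UK5099 raised Hoxd12 by 0.65 (adjusted p = 0.0014) as deposited and 0.92 after scaling, and by 0.67 without both libraries that stood apart, where the adjusted p of 0.014 missed the limit. The interaction was 0.42 (adjusted p = 0.13), so a departure from additivity was not shown for Hoxd12. Between 82 and 303 fragments of Hoxd12 were recovered per library, against 2278 to 4295 of Hoxd13.

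Because Hoxd13 and Hoxd12 are neighbours whose groups stood in a different order and Hoxa13 is the paralog of the former, the 250 bases upstream of their annotated starts are shown, from RefSeq promoter windows of GRCm38.p6, each 5′ to 3′ on the strand of its gene. Windows of 300 bases (250 before the start and 50 after it) were found for 20 of the 29 members, 22 windows in all, and those without one in the table included Hoxa4, Hoxb2, Hoxb3, Hoxb5, Hoxb6, Hoxb7, Hoxb9 and Hoxb13. Capitals mark matches on either strand to GGGCGG (the GC box), TATAAA (the TATA box), CCAAT or TTTATNG, a site preferred by posterior Hox proteins; matches may overlap one another, and no match to TTTATNG lies in these stretches.
Hoxd13, chr2:74667975-74668224, plus strand: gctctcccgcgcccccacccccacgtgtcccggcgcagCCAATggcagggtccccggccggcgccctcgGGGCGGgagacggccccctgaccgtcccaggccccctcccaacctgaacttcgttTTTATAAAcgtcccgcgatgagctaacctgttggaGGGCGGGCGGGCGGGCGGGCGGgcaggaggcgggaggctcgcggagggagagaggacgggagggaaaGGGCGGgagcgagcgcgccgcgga
Hoxd12, chr2:74674763-74675012, plus strand: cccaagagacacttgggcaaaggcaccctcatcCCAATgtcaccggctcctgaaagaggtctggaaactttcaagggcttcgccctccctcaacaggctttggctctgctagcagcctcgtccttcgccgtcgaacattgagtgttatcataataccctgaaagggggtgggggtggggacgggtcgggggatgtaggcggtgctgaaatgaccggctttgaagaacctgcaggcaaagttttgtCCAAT
Hoxa13, chr6:52260881-52261130, minus strand: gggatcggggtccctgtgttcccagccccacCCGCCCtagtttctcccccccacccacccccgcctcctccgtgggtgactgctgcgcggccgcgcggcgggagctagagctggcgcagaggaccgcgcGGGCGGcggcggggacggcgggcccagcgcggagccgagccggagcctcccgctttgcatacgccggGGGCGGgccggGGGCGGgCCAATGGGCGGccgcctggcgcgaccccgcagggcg

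The stretch of Hoxd13 held 31 CpG dinucleotides, 7 matches to GGGCGG, several of them overlapping in 1 repeat, 2 to TATAAA, which overlap on opposite strands, and 1 to CCAAT, at 74.4% GC. That of Hoxa13 held 35 CpG, 5 matches to GGGCGG and 1 to CCAAT at 80.0% GC. The Hoxd12 stretch differed from both, with 10 CpG, 0 matches to GGGCGG or TATAAA, 2 to CCAAT and 55.6% GC. Over the 22 member windows, GGGCGG was found in 9, CCAAT in 13, TATAAA in 4 and TTTATNG in 2, where it was found in 35.7%, 37.4%, 13.6% and 10.9% of all 32851 windows. Member windows had a median of 17.5 CpG (4 to 45) and 56.5% GC (39.7 to 81.0), against 7 CpG and 52.7% GC over all windows. These matches describe letters and say nothing of binding.

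Within HoxB, the adjacent central genes Hoxb5, Hoxb6 and Hoxb7 fell with each treatment on both scales. They start 92.31 to 109.02 kb from Hoxb13. Hoxb7 (ENSMUSG00000038721; chromosome 11, 96177449 to 96180989, plus strand) had a deposited TPM of 13.86, 13.03 and 14.56 in vehicle, 7.62, 9.51 and 8.43 under UK5099, 7.88, 7.68 and 6.84 under butyrate, and 6.02, 5.94 and 4.86 under both. Vehicle was highest, the single treatments overlapped, and the combination was lowest in every sample. Its combination coefficient was -1.17 (SE 0.092, adjusted p = 1.9e-06) as deposited and -0.75 after scaling.

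Hoxb6 (ENSMUSG00000000690; chromosome 11, 96183302 to 96192396, plus strand), a gene of thoracic patterning, had 4.25, 4.71 and 4.55 TPM in vehicle, 2.39, 2.23 and 2.25 under UK5099, 2.57, 2.34 and 2.40 under butyrate, and 1.45, 1.73 and 1.53 under both. The same order of groups held, again with overlap between the single treatments only. UK5099 alone gave -0.74 (adjusted p = 1.4e-06), butyrate alone -0.68 (adjusted p = 9.9e-07) and the combination -1.10 (SE 0.047, adjusted p = 2.2e-08) as deposited, or -0.61, -0.43 and -0.77 after scaling. Hoxb6 was the 1 member with an interaction past the adjusted p, at 0.32 (adjusted p = 0.0073), less of a fall than the sum of the single effects. After scaling it was 0.28 and missed the limit (adjusted p = 0.020). As deposited, 1729 of all 24674 genes passed that limit as higher and 1574 as lower. Among the 13345 genes whose mean reached 1 TPM the numbers were 1290 and 1390, so no excess of interactions among Hox genes is read from this count. At both limits 0 members were called for the interaction, where 1.01% of all genes were, with 9 members at an unadjusted p under 0.05 and 0 called by voom.

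Hoxb5 (ENSMUSG00000038700; chromosome 11, 96194162 to 96196948, plus strand), which acts in enteric neural crest and lung, was the member that fell furthest. Its deposited TPM was 3.31, 2.85 and 2.88 in vehicle, 1.598, 1.452 and 1.735 under UK5099, 1.23, 1.63 and 1.44 under butyrate, and 0.75, 0.54 and 0.86 under both. The combination lay at 23.8% of the vehicle mean and below every other sample, and the single treatments, at 52.9% and 47.5%, overlapped. Its coefficient was -1.23 (SE 0.084, adjusted p = 6.4e-07) for the combination as deposited and -0.96 after scaling, which understates the ratio because 1 TPM was added before the logarithm. Only 15 to 67 fragments per library stand behind these values. Hoxb5 and Hoxb6 both overlap the antisense gene Hoxb5os, and since the sources used here do not say whether counting used strand, their counts are uncertain to that extent; Hoxb7 overlaps no other gene in the table.

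Of the other HoxB genes above 1 TPM, Hoxb9 (ENSMUSG00000020875), a thoracic and mammary patterning gene, had 6.67, 4.94 and 5.76 TPM in vehicle, 3.44, 4.17 and 4.61 under UK5099, 3.30, 3.46 and 3.62 under butyrate, and 3.87, 4.60 and 4.57 under both. All treated samples lay below vehicle, and the combination lay above butyrate alone. Butyrate gave -0.60 (adjusted p = 0.0010) as deposited and -0.34 after scaling, where it did not pass, whereas UK5099 (-0.42, adjusted p = 0.012) and the combination (-0.34, adjusted p = 0.023) missed the limit, the latter turning to 0.05 after scaling.

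Hoxb4 (ENSMUSG00000038692), known for its part in blood stem cells, had 3.76, 3.93 and 4.05 TPM in vehicle, 3.48, 3.02 and 3.41 under UK5099, 2.35, 1.65 and 2.54 under butyrate, and 2.82, 1.97 and 2.72 under both. It fell under butyrate (-0.64, adjusted p = 0.0013) and the combination (-0.50, adjusted p = 0.0055) as deposited, but not past the limit after scaling (-0.40 and -0.15). Hoxb8 (ENSMUSG00000056648) had 2.39, 3.29 and 2.04 TPM in vehicle, 1.62, 1.65 and 1.56 under UK5099, 1.195, 1.736 and 1.708 under butyrate, and 1.65, 1.62 and 1.40 under both. All its treated samples lay below vehicle, with coefficients of -0.44 (adjusted p = 0.018), -0.48 (adjusted p = 0.0086) and -0.47 (adjusted p = 0.0089) as deposited, and -0.33, -0.27 and -0.16 after scaling, where none passed.

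As deposited, all 4 posterior genes of HoxA fell in the combination. Hoxa10 (ENSMUSG00000000938), a regulator of the uterus and the male accessory glands, had 28.6, 30.2 and 29.2 TPM in vehicle, 22.2, 23.5 and 24.3 under UK5099, 24.5, 24.0 and 24.8 under butyrate, and 18.2, 18.0 and 17.8 under both. The single treatments overlapped between vehicle and the combination. The coefficients were -0.32 (adjusted p = 3.1e-05), -0.25 (adjusted p = 8.1e-05) and -0.67 (adjusted p = 4.4e-08) as deposited, and -0.17, 0.05 and -0.23 after scaling, so the fall under butyrate alone was lost.

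Hoxa11 (ENSMUSG00000038210), which patterns the forearm, kidney and uterus, had 29.8, 30.9 and 28.3 TPM in vehicle, 24.4, 24.4 and 21.9 under UK5099, 25.4, 27.5 and 26.0 under butyrate, and 19.96, 19.04 and 18.85 under both. No group overlapped another. UK5099 gave -0.32 (adjusted p = 5.5e-04) and the combination -0.60 (adjusted p = 2.8e-06) as deposited, but after scaling -0.18 (adjusted p = 0.027) and -0.15 (adjusted p = 0.038) missed the limit. UK5099 added to butyrate lowered Hoxa11 on every scale. Its antisense RNA Hoxa11os lay between 32.8 and 33.6 TPM in vehicle and 28.6 and 30.8 in the combination, so that the ratio of Hoxa11os to Hoxa11 ran from 1.06 to 1.19 in vehicle, 1.39 to 1.57 under UK5099, 1.31 to 1.40 under butyrate and 1.51 to 1.54 under both. The 2 genes overlap on opposite strands, so reads may be split between them. The coefficient of Hoxa11os in the combination was -0.17 as deposited and 0.28 after scaling.

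Hoxa9 (ENSMUSG00000038227), best known in blood cells, had 33.6, 35.1 and 33.2 TPM in vehicle, 33.20, 32.95 and 33.55 under UK5099, 31.7, 30.5 and 30.4 under butyrate, and 27.7, 25.3 and 26.0 under both. UK5099 overlapped vehicle, and the combination lay below all others. The fall in the combination (-0.36, adjusted p = 6.4e-06) and under butyrate (-0.14, adjusted p = 0.0059) held only as deposited and turned to 0.09 and 0.17 after scaling.

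None of the anterior or central genes of HoxA fell past the limit in the combination on either scale. Hoxa4 (ENSMUSG00000000942) had 1.28, 2.08 and 1.26 TPM in vehicle, 2.06, 2.31 and 1.97 under UK5099, 2.36, 2.39 and 2.36 under butyrate, and 2.61, 3.77 and 3.52 under both. The combination lay above every other sample, with a coefficient of 0.77 (SE 0.13, adjusted p = 6.4e-04) as deposited and 1.08 after scaling, where it was called. Between 17.6 and 78.0 fragments of Hoxa4 were recovered per library, and it overlaps other transcripts, also on its own strand.

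Hoxa7 (ENSMUSG00000038236) had 16.0, 14.5 and 16.7 TPM in vehicle, 15.57, 14.85 and 14.00 under UK5099, 16.9, 17.0 and 17.3 under butyrate, and 17.0, 15.6 and 16.1 under both. Its groups differed little as deposited (-0.08, 0.11 and 0.04, with adjusted p from 0.12 to 0.56), and it rose by 0.41 under butyrate and 0.48 under both after scaling. Hoxa5 (ENSMUSG00000038253), which acts in the lung, had 9.54, 10.8 and 10.7 TPM in vehicle, 8.81, 8.70 and 7.72 under UK5099, 10.2, 8.16 and 9.47 under butyrate, and 7.46, 8.99 and 8.87 under both. No comparison with vehicle passed for Hoxa5 on either scale, with coefficients between -0.27 and -0.14 as deposited.

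Hoxa6 (ENSMUSG00000043219) had 1.860, 1.600 and 1.132 TPM in vehicle, 1.83, 1.29 and 1.64 under UK5099, 1.321, 1.288 and 1.595 under butyrate, and 1.043, 1.199 and 1.844 under both. Hoxa2 (ENSMUSG00000014704), a gene of the hindbrain and branchial arches, had 1.65, 1.46 and 1.47, 1.49, 1.12 and 1.39, 2.22, 0.93 and 1.89, and 1.31, 1.42 and 1.73 TPM in the same order. All groups overlapped for both genes, and their coefficients against vehicle lay between -0.12 and 0.05 as deposited, and the lowest adjusted p was 0.60.

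Among the other HoxD genes, Hoxd10 and Hoxd11 fell in the combination on every scale and Hoxd8 and Hoxd9 did not. Hoxd11 (ENSMUSG00000042499), which acts with Hoxa11 in the forearm and kidney, had 10.98, 11.47 and 9.695 TPM in vehicle, 8.52, 7.93 and 8.65 under UK5099, 7.52, 7.04 and 6.64 under butyrate, and 5.25, 5.46 and 5.97 under both. Its groups did not overlap, and it fell under butyrate (-0.54, adjusted p = 7.2e-05) and under both (-0.84, adjusted p = 2.1e-06) also after scaling (-0.25 and -0.43). The fall of Hoxd11 under UK5099 (-0.32, adjusted p = 0.0034) was lost after scaling (-0.18, adjusted p = 0.042). Hoxd10 (ENSMUSG00000050368), a gene of lumbar motor neurons, had 11.4, 12.1 and 13.5 TPM in vehicle, 7.57, 6.52 and 8.14 under UK5099, 9.01, 9.14 and 8.23 under butyrate, and 6.57, 6.61 and 6.51 under both. Here UK5099 lay below butyrate and overlapped the combination, at -0.67 (adjusted p = 8.0e-05), -0.44 (adjusted p = 7.2e-04) and -0.82 (adjusted p = 7.4e-06) as deposited and -0.53, -0.16 and -0.40 after scaling, where the value for butyrate did not pass. Both overlap a further transcript on their own strand.

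Hoxd9 (ENSMUSG00000043342) had 21.2, 22.4 and 19.3 TPM in vehicle, 19.4, 21.9 and 21.9 under UK5099, 16.6, 16.4 and 17.8 under butyrate, and 16.33, 16.79 and 18.97 under both. UK5099 gave 0.004 (adjusted p = 0.98) with overlapping groups, and the fall under butyrate (-0.29, adjusted p = 0.0069) became 0.006 after scaling. Hoxd8 (ENSMUSG00000027102) had 34.1, 32.6 and 33.7 TPM in vehicle, 29.0, 29.4 and 30.8 under UK5099, 27.5, 26.2 and 27.1 under butyrate, and 21.6, 24.8 and 23.5 under both. The groups of Hoxd8 did not overlap, but its fall under butyrate (-0.30) and under both (-0.50) as deposited shrank to 0.003 and -0.06 after scaling.

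The remaining 6 members, Hoxa3, Hoxb2, Hoxb3, Hoxd1, Hoxd3 and Hoxd4, had group means between 0.0054 and 0.77 TPM as deposited. Hoxa3, Hoxb3 and Hoxd4 lay above 1 TPM per exonic length in vehicle, and 133.7 to 257.8 fragments of Hoxa3 were recovered per library. Hoxd1 was near 0, with 0 to 3 fragments per library. Hoxb3, singled out after its values were seen, fell in all 3 comparisons on every scale, with a mean of 0.77 TPM in vehicle, 0.41 under UK5099, 0.44 under butyrate and 0.32 under both. In the whole set 17 members overlap another gene of the table, 9 of them on the same strand, and their counts are uncertain for that reason.

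Adding the second agent to the first gave 0 members past both limits in either direction. For UK5099 added to butyrate, 0.908% of all genes were called, 17 members had an unadjusted p under 0.05 and voom called 0. For butyrate added to UK5099, 1.97% of all genes were called, 18 members had an unadjusted p under 0.05 and voom called 1, Hoxd12, higher at 1.08. At the adjusted p, UK5099 added to butyrate lowered 12 members as deposited and 6 after scaling, against 5418 and 2262 of all 24674 genes. It raised 0 and 1 members, against 1362 and 2493 of all genes. Of the 23 members that reached 1 TPM, 12 and 6 fell, against 4797 and 1860 of the 13345 genes at that level. Hoxa10, Hoxa11, Hoxb5, Hoxb6, Hoxb13 and Hoxd13 fell on every scale. Hoxb13 fell by 0.57 (adjusted p = 2.4e-06) on the log2 scale in that comparison, and Hoxd13 by 0.58 (adjusted p = 2.5e-07). Butyrate added to UK5099 lowered 11 members as deposited and 4 after scaling, against 8721 and 4609 of all 24674 genes. It raised 2 and 5 members, against 1880 and 4230 of all genes. Of the 23 members that reached 1 TPM, 11 and 4 fell, against 7811 and 4096 of the 13345 genes at that level. Hoxa13, Hoxb5, Hoxd11 and Hoxd13 fell on every scale, while Hoxa3 and Hoxd12 rose on every scale.

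The TALE partners of Hox proteins were all measured (9 of 9), and 0 passed both limits. At the adjusted p as deposited, 2 fell and 0 rose under UK5099, 4 fell and 3 rose under butyrate, and 5 fell and 1 rose under both; after scaling the numbers were 1 and 1, 2 and 4, and 2 and 3. Of 17 non-coding genes of the clusters 10 were measured and 0 passed both limits. At the adjusted p as deposited, 0 of them moved under UK5099, 1 rose under butyrate, and 1 rose and 1 fell, Hoxa11os, in the combination; after scaling 0 fell, while 1, 2 and 3 rose in the same order. Hoxa11os made up most of their sum. Of 14 genes that flank the clusters 12 were measured, of which 4 fell and 0 rose under UK5099, 6 fell and 1 rose under butyrate and 7 fell and 1 rose in the combination as deposited. After scaling 2 fell and 2 rose under UK5099, 2 fell and 2 rose under butyrate, and 5 fell and 3 rose in the combination; the shares of all genes on both scales are those given above for the members. Among the flanking genes 2 were called, both lower in the combination and both flanking HoxC: Calcoco1 at -1.04 and Cbx5, a heterochromatin protein, at -1.01, or -0.61 and -0.58 after scaling. Of 6 other posterior or gut homeobox genes 1 was measured, Cdx2, which reached at most 0.090 TPM.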

How the data were processed

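Per the labels, total RNA of 12 libraries was sequenced after ribosomal RNA depletion and mRNA enrichment with a strand-marking kit; the study's methods name a stranded mRNA kit and no such depletion, and which of these was used was not settled here. The submitters' processing notes name STAR 2.7.9a, Partek and GRCm39; the study's methods also name GRCm38, so coordinates are given as in the table. TPM values were deposited by the authors, and in 100% of genes the length they used was the whole genomic span. Fragments were recovered from the TPM values (66.5% of those under 1000 fragments were whole within 0.02); exonic lengths came from the GENCODE annotation of GRCm38 by gene ID (23913 genes). Samples were grouped by their labels, 3 in each group, and 0 value columns were left unmapped.

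All 24674 genes were fitted on log2(TPM + 1) with limma 3.58.1 in R 4.3.3 (UK5099, butyrate and interaction, empirical Bayes, Benjamini-Hochberg adjustment over all genes). A call needed an adjusted p under 0.01 and an absolute coefficient over 1. Coefficients are on this scale, which understates the change of low genes. Precision rests on 3 libraries a group and, for low genes, on the fragments given. Alternatives were other pseudocounts, a 1 TPM filter, median-of-ratios scaling, quantile normalisation, limma's voom on recovered fragments, rescaling over nuclear protein-coding genes, trended robust variances, a replicate block, fits of the samples compared only, leaving out each replicate, a 1.5-fold limit and, chosen after seeing the data, exonic lengths and leaving out both libraries that stood apart. The code was tested on simulated data. The members whose mean reached 1 TPM as deposited in 1 of the groups or more are named with all their values, where reported, and other members by counts, ranges or means, or as near 0. The members and gene lists were chosen with earlier results of these data known. Hotair, the microRNAs of the clusters, Skap1, Prac1, Cdx1, Cdx4, Gsx1, Gsx2, Pdx1, Des, Cd3e and 3 seminal vesicle markers matched no row and were not analysed here. Values of some items are not reported here.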

Additional observations from a re-analysis of the deposited data

Results flagged for a closer look

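For Hoxb6 the fall under UK5099 was smaller when butyrate was present, in a test of that difference itself. The limma interaction coefficient was 0.32 on the log2(TPM + 1) scale (adjusted p = 0.0073), with UK5099 lowering Hoxb6 by -0.74 against vehicle and by -0.42 in the presence of butyrate. It missed the limit after median-of-ratios scaling (0.28, adjusted p = 0.020) and with voom on recovered fragments (0.33, adjusted p = 0.098), and it was 0.38 (adjusted p = 0.0080) without both libraries that stood apart. As deposited, the interaction passed the adjusted p in 1729 of all 24674 genes as higher and 1574 as lower, beside this 1 member.

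For Hoxb9 all 3 UK5099 samples lay below all 3 vehicle samples, while all 3 combination samples lay above all 3 butyrate samples. UK5099 thus gave -0.42 against vehicle and 0.26 when added to butyrate, neither past the limit alone (adjusted p = 0.012 and 0.0995). The interaction was 0.68 (adjusted p = 0.012), just outside the limit. It was 0.82 (adjusted p = 7.3e-04) with voom, 0.68 (adjusted p = 0.0101) after scaling and 0.65 (adjusted p = 0.017) without both libraries that stood apart. With voom 1 HoxA member also passed the adjusted p for the interaction, as lower. Of all 24674 genes voom passed 1718 as higher and 2207 as lower. Hoxb9 overlaps no other gene of the table, and 131 to 247 of its fragments were recovered per library.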

How the results depend on the processing

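The number of Hox members past both limits was 0 for UK5099, 0 for butyrate, 4 for the combination, and 0 for the interaction and both added-agent comparisons. For the combination it was 1 after median-of-ratios scaling (Hoxa4, higher) and 2 after quantile normalisation. With a 1.5-fold limit it was 12 for the combination, beside 6 for UK5099, 6 for butyrate and 3 for butyrate added to UK5099. These 1.5-fold counts, and those here with quantile normalisation, other pseudocounts or protein-coding rescaling, were not set against the share of all genes and cannot be told from it. The number past both limits was 1 for UK5099 and 1 for butyrate with a pseudocount of 0.1 or 0.01, 1 for butyrate added to UK5099 with either, and 1 for UK5099 added to butyrate with 0.01. Rescaling over nuclear protein-coding genes gave 1 for UK5099, and voom 1 for butyrate added to UK5099. Leaving out each replicate in turn gave 0 to 1 for UK5099 (Hoxd12 without UK5099 replicate 2), 4 to 4 for the combination and 0 to 0 for the others. A replicate block gave 4 for the combination and 0 for the others; the shared numbers do not pair the samples, as the deviations of same-numbered samples correlated at -0.11 to 0.03 over 18 pairs, 0 of them over 0.1.

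Of 3289 single-gene values under these alternatives 2982 kept their side of the limit, 73 newly passed it, 206 no longer passed it and 28 reversed. A value counted as reversed where its sign turned and it passed the limit before or after the change. Values whose sign turned without a pass on either side are among the 2982, such as Hoxa6 under UK5099 (-0.083 to 0.13 with each replicate left out in turn). For butyrate against vehicle the reversed values were, after median-of-ratios scaling, Hoxa9 0.17, Hoxa10 0.052, Hoxb13 0.19, Hoxd8 0.0026 and Hoxd9 0.0060; after quantile normalisation, Hoxa9 0.23, Hoxa10 0.12, Hoxa11 0.20, Hoxb13 0.26, Hoxd8 0.079 and Hoxd9 0.076; with voom, Hoxa9 0.18, Hoxa10 0.054, Hoxb13 0.20, Hoxd8 0.0014 and Hoxd9 0.015; and after protein-coding rescaling, Hoxa9 0.047. For the combination Hoxa9 turned to 0.094, 0.11 and 0.099 after median-of-ratios, quantile and voom. For butyrate added to UK5099 they were Hoxa11 0.026 and Hoxb13 0.039 after median-of-ratios scaling, Hoxa9 0.021, Hoxa11 0.070, Hoxb13 0.074 and Hoxd8 0.009955 after quantile normalisation, and Hoxa11 0.031 and Hoxb13 0.040 with voom. Every reversal of this kind arose with a rescaling of the libraries, and the cause of the shift between scales was not tested. Depth limits the genes of few fragments, such as Hoxb5 and Hoxa4, more than Hoxd13.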
